A study of Mus musculus with 60 samples.

Results

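Krt7, Krt8, Krt18 and Krt19 are the 4 keratin genes followed here in mouse mammary glands under ovarian hormones. Their members on the arrays were the probe sets annotated with exactly 1 of these symbols. There were 7 such probe sets among 36899 in all, and 5 of them were bright enough to be tested among 23062 tested probe sets. All 4 genes had at least 1 tested probe set, out of 15964 genes named on the arrays.

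RNA from 20 ovariectomized mice was hybridised to 3 types of Affymetrix array, which report each transcript by a set of short probes. Every animal had been ovariectomized and injected intraperitoneally each day for 4 days. The E+P group (5 animals) received 2 µg 17-beta-estrogen together with 1 mg progesterone, the E group (4 animals) the estrogen alone and the P group (4 animals) the progesterone alone. The E+P CFP group (3 animals) consisted of fat pads without epithelium from animals given E+P, and the V group (4 animals) received 100 µl sesame oil. The labels give neither strain nor age, and whole tissue without the lymph nodes was used, so every value mixes epithelium, fat, stroma and blood cells. In such tissue fewer epithelial cells and less keratin RNA per cell cannot be told apart.

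Keratins build the intermediate filaments of epithelial cells, and each filament needs a type I and a type II partner. In the mammary gland Krt8 and Krt7 (type II) and Krt18 and Krt19 (type I) are known from the luminal cells that line the ducts, while Krt5 and Krt14 are known from the basal layer. Krt8 and Krt18 are the standard pair of simple epithelia, Krt19 is a small type I keratin that lacks most of the tail, and Krt7 is a type II keratin of ductal epithelia. In the RefSeq gene table (GRCm38.p6) Krt7, Krt8 and Krt18 lie on chromosome 15, and Krt19 lies on chromosome 11. Krt8 and Krt18 are neighbours there, with 0 protein-coding genes between them.

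Start regions are shown for Krt7, Krt8 and Krt18, the 3 of the 4 genes matched in RefSeq's promoter table, because Krt8 and Krt18 are neighbours and Krt7 lies on the same chromosome. The sequences are RefSeq's (GRCm38.p6), from 250 bases before the start to 30 after it, 5′ to 3′ on the gene's strand. They are chr15:101412153-101412432 (plus strand) for Krt7, chr15:102004313-102004592 (minus strand) for Krt8 and chr15:102027966-102028245 (plus strand) for Krt18. Capitals mark AGGTCA, the half-site letters of nuclear receptors, and TATAAA, on either strand.
Krt7: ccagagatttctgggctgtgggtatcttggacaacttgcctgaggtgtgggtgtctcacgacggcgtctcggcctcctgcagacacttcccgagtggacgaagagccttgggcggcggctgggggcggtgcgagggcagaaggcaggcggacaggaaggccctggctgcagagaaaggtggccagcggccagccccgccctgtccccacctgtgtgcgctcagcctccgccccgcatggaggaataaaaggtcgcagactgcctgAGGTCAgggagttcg
Krt8: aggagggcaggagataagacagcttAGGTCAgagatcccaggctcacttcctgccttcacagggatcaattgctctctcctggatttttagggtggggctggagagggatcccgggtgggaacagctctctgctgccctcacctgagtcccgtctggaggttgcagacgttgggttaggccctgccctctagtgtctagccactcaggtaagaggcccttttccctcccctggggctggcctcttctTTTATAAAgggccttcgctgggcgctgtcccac
Krt18: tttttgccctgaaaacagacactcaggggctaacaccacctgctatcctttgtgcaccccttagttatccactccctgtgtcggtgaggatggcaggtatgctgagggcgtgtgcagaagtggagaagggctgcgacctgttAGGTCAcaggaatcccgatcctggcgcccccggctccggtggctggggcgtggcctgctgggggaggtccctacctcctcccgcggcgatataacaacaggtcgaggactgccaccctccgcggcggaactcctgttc

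Each of the 3 windows held AGGTCA, at base 15 after the start in Krt7 and beginning 225 bases before it in Krt8 and 108 bases before it in Krt18. Of 32851 RefSeq promoter windows of 300 bases, 16.3% held these letters on either strand. TATAAA was found in Krt8, where 2 matches on opposite strands overlap at the start, and 13.6% of windows held it. GGGCGG, the GC box, was found 4 times in Krt7, and 35.7% of windows held it. AGAACA, the half-site letters of the progesterone and glucocorticoid receptors, occurred in the Krt18 window and in 19.0% of all windows. The full palindromic estrogen response element (GGTCA and TGACC with any 3 bases between them) was in 0.0700% of all windows, and its letters were not in these 3. These matches describe the letters only.

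The 4 genes were represented by 1 probe set each (101009_at for Krt8, 94270_at for Krt18, 92550_at for Krt19 and 97920_at for Krt7). Signals are given on the linear MAS5 scale after each array was rescaled to a common trimmed mean. Values under a floor of 13.6 were set to the floor before log2 values were taken. A probe set was called when limma's p, adjusted by Benjamini-Hochberg over all 23062 tested probe sets, was under 0.05. A signal cannot be compared between probe sets, so each gene is compared only with itself across animals.

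Krt8 had signals of 1127, 1641, 1365, 946 and 1432 in the E+P glands. It had 1483, 848, 1319 and 1819 in the E glands and 731, 1009, 585 and 794 in the P glands. The E+P CFP pads gave 9.31, 8.31 and 6.91, and the V glands gave 752, 633, 738 and 810. Every E+P gland and every E gland lay above every V gland, whereas the P and V glands overlapped.

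Krt18, the filament partner of Krt8, had signals of 1501, 1757, 1929.8, 1457 and 1844 in the E+P glands. It had 1791, 1020.1, 1617 and 2025 in the E glands and 917, 1097, 1150.3 and 1032 in the P glands. Signals in the E+P CFP pads were 18.2, 19.7 and 12.3, and the V glands gave 1329, 1115, 1216 and 1549. Of the 5 E+P glands 3 lay above the V range and 2 within it, 3 of the 4 E glands lay above that range and 1 below it, and the E+P glands all lay above the P glands.

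Krt19 had signals of 1298, 1853, 1725, 966 and 1347 in the E+P glands. It had 1737, 1260, 1696 and 2679 in the E glands and 916, 773, 593 and 902 in the P glands. The E+P CFP pads gave 3.70, 1.90 and 2.50, and the V glands gave 916, 675, 673 and 874. Every E gland and every E+P gland lay above every V gland, and the P and V glands overlapped.

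Krt7 had signals of 462, 681, 570, 459 and 590.3 in the E+P glands. It had 589, 285, 467 and 459 in the E glands and 249.6, 251, 219 and 294 in the P glands. Signals in the E+P CFP pads were 3.90, 3.51 and 2.90, and the V glands gave 365, 294, 283 and 513. The E+P glands all lay above the P glands, and both the E and the P glands overlapped the V glands.

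The order of the group means differed between the genes. For Krt8 and Krt19 it ran E, E+P, P, V and E+P CFP from high to low, and for Krt18 and Krt7 it ran E+P, E, V, P and E+P CFP. The neighbours E+P and E were not told apart by limma for any of the 4 genes, nor were P and V. E+P CFP was called lower than both E+P and V for all 4, while P and E were not compared with E+P CFP.

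The remaining 3 probe sets add little. The other Krt19 probe set, 102121_f_at, carries a suffix for probes shared with similar sequences, so it may also measure related transcripts. It averaged 145 ± 53.5 in the E+P glands, 176 ± 73.8 in the E glands, 62.8 ± 16.2 in the P glands, 1.90 ± 0.626 in the E+P CFP pads and 78.9 ± 13.3 in the V glands (SD, n = 5, 4, 4, 3 and 4). Its E glands again all lay above the V glands. The other Krt18 probe set, 162191_at, was at the floor in 19 of 20 animals and reached at most 13.9. The other Krt7 probe set, 164287_i_at, was at the floor of its array type in 20 of 20 animals. Neither was tested, so Krt18 and Krt7 rest on 1 probe set each.

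The comparison of E+P glands with E+P CFP pads asks how much of each signal comes with the epithelium under the same hormones. All 4 genes were higher in the E+P glands, beside 7.90% of tested probe sets called in either direction. Krt19 was at least 103-fold higher (log2 difference 6.69 ± 0.22, SE, limma adjusted p = 1.6e-14) and Krt8 at least 94.1-fold higher (6.56 ± 0.21, limma adjusted p = 1.5e-14). Krt7 was at least 40.2-fold higher (5.33 ± 0.21, limma adjusted p = 4.7e-13). These 3 are lower bounds against the floor, because all 3 pads were under it. Krt18 was the one member with pads above the floor, in 2 of 3, and it was 99.4-fold higher (6.64 ± 0.18, limma adjusted p = 1.6e-15). The size of these differences follows the floor. With a floor at the 10th percentile the log2 difference of Krt19 was 8.45 and that of Krt7 was 7.09, and with one at the 40th percentile they were 5.26 and 3.90.

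The E+P CFP pads were also lower than the V glands for all 4 genes, beside 3.07% of tested probe sets called. The log2 differences of E+P CFP from V were -6.25 ± 0.19 for Krt18, -5.84 ± 0.23 for Krt19, -5.75 ± 0.22 for Krt8 and -4.70 ± 0.22 for Krt7 (SE). Skeletal muscle marker scores ran from -0.743 to -0.115 in the E+P glands and from 1.97 to 2.60 in the E+P CFP pads. White adipocyte scores ran from -0.516 to -0.018 in the E+P glands and from 0.389 to 0.509 in the pads. Of the tested markers 11 of 12 for muscle and 8 of 13 for adipocytes were called lower in the E+P glands. The part of both in the differences was not tested. A marker score is the mean log2 deviation of a list's genes from their own means over the 20 animals.

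Other epithelial genes were low in the pads as well. Of 33 tested epithelial markers other than keratins, 31 were higher in the E+P glands than in the E+P CFP pads and 0 were lower, with a median log2 difference of 3.05. Over all 10898 genes of the fit that median was 0.02, and that of the 4 luminal keratins was 6.60. Foxa1, a pioneer transcription factor of luminal cells, stood at 5.33, Epcam, the epithelial cell adhesion molecule, at 4.07 and Elf5, a transcription factor of luminal progenitors, at 3.82, each a lower bound with all 3 pads at the floor. St14, which encodes the membrane protease matriptase, stood at 4.21, with 2 of 3 pads at the floor. The list's score was 0.73 ± 0.20 in the E+P glands and -2.10 ± 0.04 in the E+P CFP pads (SD, n = 5 and 3). An exact permutation test of that score gave p = 0.036, the smallest value these group sizes allow, and 0.063 after adjustment over 7 comparisons. The list was chosen as epithelial and the pads lack epithelium, so the count and this test could hardly come out otherwise.

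Of 16 tested partners of the keratin network, 8 were higher in the E+P glands than in the pads and 0 were lower (median log2 difference 0.98). Desmoplakin, Dsp, which ties keratin filaments to desmosomes, stood at 4.52 ± 0.23 and the desmosomal cadherin Dsg2 at 2.14 ± 0.27. Pkp3, a desmosomal plaque protein, stood at 3.01 ± 0.47 and periplakin, Ppl, a cytolinker, at 0.90 ± 0.13. Of 19 other keratins tested, 2 were higher in the E+P glands, beside 7.15% of all genes, and the median log2 difference was 0.17. They were Krt32 (0.86 ± 0.23, limma adjusted p = 0.020) and Krt86 (0.60 ± 0.17, limma adjusted p = 0.037), both known from hair. Of the list 0 were lower. Krt6a stood at 0.50 ± 0.22 and Krt36 at -0.40 ± 0.34, neither past the threshold.

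The defining basal keratins were not measured well enough to be set beside the luminal ones. Krt14 was at the floor in 16 of 20 animals, with a highest signal of 24.9, and Krt5 was at the floor in 18 of 20, with a highest signal of 30.0. Neither passed the filter. The low signal is that of these probe sets and says nothing about basal cells.

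Estrogen alone was compared with vehicle to ask what it does in the absence of progesterone. Krt19 rose by 1.19 ± 0.21 on the log2 scale (2.29-fold, limma adjusted p = 0.0186), averaging 1843 ± 598 in the E glands and 784 ± 129 in the V glands (SD, n = 4 each). It was the 1 member called, beside 0.178% of tested probe sets in either direction. With only the E and V glands in the fit its difference was 1.19 ± 0.21 and not called (limma adjusted p = 0.0750). Krt8 averaged 1367 ± 404 in the E glands and 733 ± 73.6 in the V glands, a log2 difference of 0.85 ± 0.20 that did not pass the threshold (limma adjusted p = 0.0963). Krt19 and Krt8 were the members whose E glands all lay above the V glands, as did those of 3.69% of tested probe sets.

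Krt7 and Krt18 had smaller log2 differences than Krt19 and Krt8. Krt7 averaged 450.2 ± 125 in the E glands and 364 ± 106 in the V glands (log2 difference 0.30 ± 0.20, limma adjusted p = 0.585). Krt18 averaged 1613 ± 429 in the E glands and 1302 ± 186 in the V glands (0.28 ± 0.18, limma adjusted p = 0.564). The 95% interval of the log2 difference ran from -0.12 to 0.73 for Krt7 and from -0.09 to 0.64 for Krt18. The estimate for Krt19 lay above both, and the interval for Krt8, 0.43 to 1.27, overlapped both. Such intervals are no test of a difference between genes, for which the ratios below were tested. The second Krt19 probe set stood at 1.08 ± 0.31 (limma adjusted p = 0.166).

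The call of Krt19 rested on few animals. It was lost without E 4, the brightest E gland (1.00, limma adjusted p = 0.0736), without V 2 (1.13, 0.0728) and without V 3 (1.12, 0.0877), which had the lowest V signals. Those fits called 13, 17 and 14 of all 23062 tested probe sets in E against V, against 41 with all animals. Without E 2, the lowest E gland, Krt8 passed as well (1.06, limma adjusted p = 0.0335), in a fit that called 20 of all tested probe sets. The E glands also had more lymphocyte and plasma cell signal, with scores of 0.326 to 1.69, against -1.41 to -1.32 in 3 V glands and 1.31 in V 4. All 16 tested genes of that list stood higher in E than in V on average and 0 were called. With this score in the model Krt19 stood at 1.27 with a limma adjusted p of 0.110. That fit called 0 of all 23062 tested probe sets in E against V, so the loss was not particular to Krt19. The log2 ratio of 3′ to 5′ Gapdh control signal, a sign of RNA quality, was also lower in the E glands (0.305 to 0.778) than in the V glands (0.982 to 1.88), and with it in the model Krt19 stood at 1.33 ± 0.24 (limma adjusted p = 0.0487).

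The other epithelial markers went both ways in E against V. Of 33 tested, 16 had a positive log2 difference in E against V, 0 were called in either direction, and the median was -0.02. The median was 0.58 for the 4 luminal keratins and 0.00 for all genes. The epithelial marker score averaged 0.24 ± 0.28 in the E glands and 0.32 ± 0.16 in the V glands (SD, n = 4 each, exact permutation p = 0.657). With this score as a covariate in the intact glands, Krt19 stood at 1.29 ± 0.16 (limma adjusted p = 0.0027) and Krt8 at 0.96 ± 0.14 (limma adjusted p = 0.0082). Krt7 (0.40 ± 0.15, limma adjusted p = 0.294) and Krt18 (0.36 ± 0.12, limma adjusted p = 0.252) were not called. That fit called 46 of all 23062 tested probe sets in E against V, against 41 without the score.

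Among those markers Cd24a, a surface glycoprotein of luminal cells, stood at 1.04 ± 0.23 (limma adjusted p = 0.0744) and the stem cell glycoprotein Prom1 at 0.62 ± 0.25 (0.329). The mucin Muc1 stood at -0.57 ± 0.20 (0.249) and the epithelial transcription factor Elf3 at -0.96 ± 0.38 (0.318). Of the 19 other keratins 0 were called, with a median of -0.09, and Krt36 (-0.72), Krt80 (1.00), Krt81 (-0.50) and Krt1 (-0.73) had the smallest adjusted p, between 0.390 and 0.550. Of the 16 network partners 0 were called, with a median of -0.12. Itga6, an integrin of hemidesmosomes, stood at -0.50 and Ppl at -0.23, while Dsg2 stood at 0.35 and Pkp3 at 0.51.

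Both hormones together were compared with vehicle. The 4 luminal keratins had positive log2 differences and 0 were called, beside 0.460% of tested probe sets in either direction. At an unadjusted p under 0.05 all 4 would have passed, as would 2462 of the 23062 tested probe sets. Krt19 averaged 1438 ± 355 in the E+P glands and 784 ± 129 in the V glands (0.85 ± 0.20, limma adjusted p = 0.067). Krt8 averaged 1302 ± 271 in the E+P glands and 733 ± 73.6 in the V glands (0.81 ± 0.19, limma adjusted p = 0.070). For these 2 genes the E+P glands all lay above the V glands, which was so for 2.45% of tested probe sets. Krt7 averaged 552 ± 93.6 in the E+P glands and 364 ± 106 in the V glands (0.63 ± 0.19, limma adjusted p = 0.174). Krt18 averaged 1698 ± 209 in the E+P glands and 1302 ± 186 in the V glands (0.38 ± 0.17, limma adjusted p = 0.408).

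These 2 near calls turned with the data used. Both Krt8 and Krt19 passed with array weights and without E+P 4 or E 2, for example Krt19 at 0.99 (limma adjusted p = 0.0269) and Krt8 at 0.92 (limma adjusted p = 0.0352) without E+P 4, the gland with the lowest signal of its group for all 4 genes. Krt19 also passed without E 4 (limma adjusted p = 0.0399) and without P 3 (0.0483), animals that enter the fit through its shared spread. Among all 23062 tested probe sets 210 were called with array weights, 123 without E+P 4 and 98 without E 2. The count was 92 without E 4 and 140 without P 3, against 106 with all animals unweighted.

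Of the 33 other epithelial markers 1 rose and 1 fell in E+P against V. In all 29 had a positive log2 difference, with a median of 0.41, against 0.72 for the 4 luminal keratins and 0.02 for all genes. Wfdc18, which encodes a secreted protein with a whey acidic protein domain, rose by 2.72 ± 0.33 (limma adjusted p = 0.00044) and Ltf, the iron-binding lactoferrin, fell by 1.58 on the log2 scale (limma adjusted p = 0.0041). Esrp1, an epithelial splicing regulator, stood at 1.04 ± 0.23 (limma adjusted p = 0.0506) and the tight junction protein Cldn3 at 0.99 ± 0.28 (limma adjusted p = 0.138). The score averaged 0.73 ± 0.20 in the E+P glands and 0.32 ± 0.16 in the V glands (SD, n = 5 and 4, exact permutation p = 0.016, adjusted p = 0.056). With the score in the model Krt19 stood at 0.32 and Krt8 at 0.24, and Krt18 at -0.05. That fit called 3 of all 23062 tested probe sets, against 106 without the score.

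Markers of other cell types also stood off 0 in E+P against V, and their part in the keratin differences was not tested. Of 10 endothelial markers 2 fell (median -0.29). Of 13 white adipocyte markers 1 had a positive difference and 0 were called (median -0.34), and of 12 skeletal muscle markers 3 had one and 0 were called (median -0.43). Of 10 basal and myoepithelial markers 9 had a positive difference and 0 were called (median 0.41).

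Of the other keratins 0 of 19 were called in E+P against V. Krt1, a keratin of the epidermis, stood at -1.82 ± 0.42 (limma adjusted p = 0.063), with 2 of 5 E+P glands at the floor, Krt36 at -0.64, Krt6a at 0.43 and Krt32 at 0.37. Of the network partners 0 of 16 were called, among them the epithelial 14-3-3 protein Sfn at 1.42 ± 0.58, Pkp2, a plakophilin, at 0.48, plectin, Plec, at 0.37 and the muscle filament protein Des at -0.91.

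**Figure D1:**
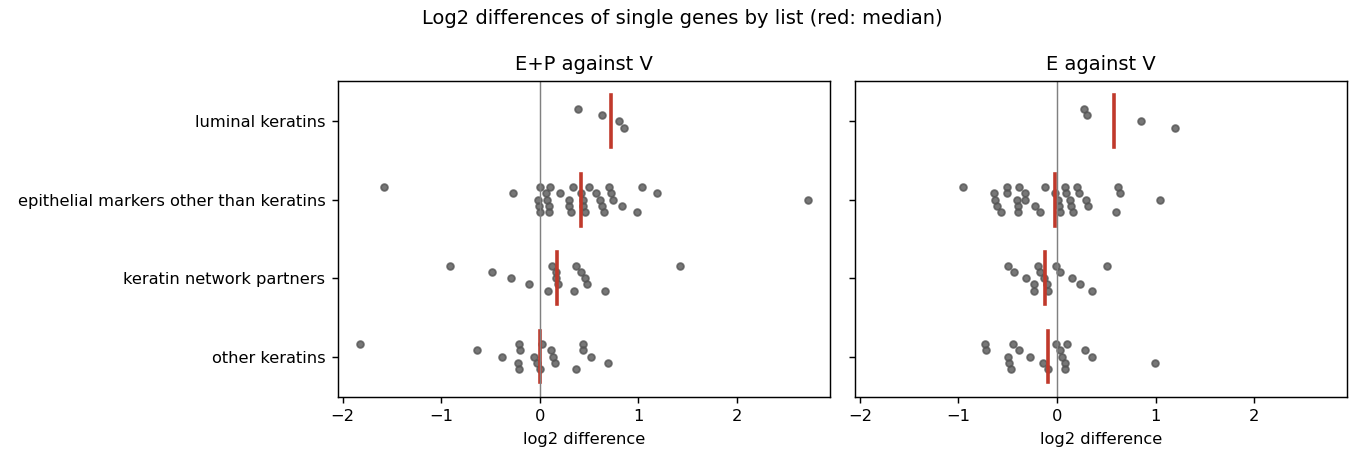
Log2 differences of single genes in E+P against V and in E against V for the 4 luminal keratins, 33 other epithelial markers, 16 keratin network partners and 19 other keratins; each point is a gene and red lines are medians. In E against V the keratin median of 0.58 stands beside a marker median of -0.02, and in E+P against V the medians are 0.72 and 0.41.

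Progesterone alone was compared with vehicle, and 0 luminal keratins were called, as were 0% of all tested probe sets. Krt7 averaged 253 ± 31.1 in the P glands and 364 ± 106 in the V glands (log2 difference -0.49 ± 0.20, limma adjusted p = 0.568). Krt18 averaged 1049 ± 100.4 in the P glands and 1302 ± 186 in the V glands (-0.31 ± 0.18, limma adjusted p = 0.694). Krt8 stood at 0.07 ± 0.20 and Krt19 at 0.01 ± 0.21, each with a sign that turned under median scaling. At an unadjusted p under 0.05 Krt7 was the 1 member that would have passed, beside 1856 of the 23062 tested probe sets. The epithelial markers had 12 of 33 positive differences with a median of -0.15, and Elf3 (-1.82), Cldn4 (-1.37), Ltf (-1.12) and Muc1 (-0.50) had the smallest adjusted p, from 0.146 to 0.531.

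Adding progesterone to estrogen was read from E+P against E. None of the 4 genes was called (0, beside 0.143% of tested probe sets). At an unadjusted p under 0.05 the count was 0 as well, beside 2295 of the 23062 tested probe sets. Krt7 stood at 0.33 ± 0.19, Krt18 at 0.11 ± 0.17, Krt8 at -0.04 ± 0.19 and Krt19 at -0.34 ± 0.20. The 95% intervals reached from -0.76 to 0.08 for Krt19 and from -0.08 to 0.73 for Krt7. The E group had the widest spread of the 4 intact groups, with an SD of log2 signal of 0.43 to 0.47 over the 4 genes, and E 2 was the lowest of its group for all 4 genes. E 2 also had the lowest epithelial score of its group, at -0.117, and the highest lymphocyte score of all animals, at 1.69, and their part in its keratin values was not tested. Of the epithelial markers Wfdc18 rose by 2.08 (limma adjusted p = 0.011) and Ltf fell by 1.46 on the log2 scale (limma adjusted p = 0.016) in E+P against E.

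Adding estrogen to progesterone was read from E+P against P. Krt7 rose by 1.12 ± 0.19 on the log2 scale (2.17-fold, limma adjusted p = 0.0138), averaging 552 ± 93.6 in the E+P glands and 253 ± 31.1 in the P glands (SD, n = 5 and 4). It was the 1 member called, beside 0.351% of tested probe sets in either direction. Krt19 stood at 0.84 ± 0.20 (limma adjusted p = 0.0743), Krt8 at 0.74 ± 0.19 (0.101) and Krt18 at 0.69 ± 0.17 (0.0768). The E+P glands of Krt7, Krt18 and Krt19 all lay above the P glands, as did those of 2.23% of tested probe sets. The call of Krt7 was lost without E+P 2 (1.04, limma adjusted p = 0.0542) and without P 3 (1.05, limma adjusted p = 0.0519). Those fits called 19 and 34 of all 23062 tested probe sets, against 81 with all animals. Krt19 passed without E+P 4 (0.97, limma adjusted p = 0.0322) or E 4 (0.84, 0.0479), and without E 2 both Krt18 (0.69, 0.0250) and Krt8 (0.74, 0.0499) passed. Over all tested probe sets the calls were 101 without E+P 4, 82 without E 4 and 92 without E 2.

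Of the 33 epithelial markers, 5 rose and 0 fell in E+P against P, 27 had a positive difference and the median was 0.57, against 0.79 for the 4 luminal keratins and 0.01 for all genes. Elf3 rose by 2.26 ± 0.36, Tjp3, a tight junction scaffold, by 2.13 ± 0.39, Wfdc18 by 2.12 ± 0.33 and St14 by 1.21 ± 0.23 (limma adjusted p between 0.0065 and 0.021). The score averaged 0.73 ± 0.20 in the E+P glands and 0.10 ± 0.14 in the P glands (SD, n = 5 and 4, exact permutation p = 0.016, adjusted p = 0.056). With the score in the model Krt7 stood at 0.31 ± 0.23 (limma adjusted p = 0.819). That fit called 0 of all 23062 tested probe sets, against 81 without the score, so the loss was not particular to Krt7. Of the network partners 0 of 16 were called, with Sfn at 2.42 ± 0.58 (limma adjusted p = 0.0768), Pkp3 at 1.15, the hemidesmosomal integrin Itgb4 at 0.59 and Plec at 0.57. Of the other keratins 0 of 19 were called, with Krt1 at -1.68 and Krt33b at 1.10.

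The interaction asks whether the effect of both hormones differs from the sum of their single effects (E+P minus E minus P plus V). None of the 4 genes was called (0, beside 0.0737% of tested probe sets). Krt7 stood at 0.81 ± 0.28 (limma adjusted p = 0.264). It was the 1 member at an unadjusted p under 0.05, beside 2687 of the 23062 tested probe sets. Krt18 stood at 0.42 ± 0.24, Krt8 at -0.11 ± 0.28 and Krt19 at -0.36 ± 0.29. Of the epithelial markers Elf3 was called at 3.22 ± 0.53 (limma adjusted p = 0.014).

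**Figure D2:**
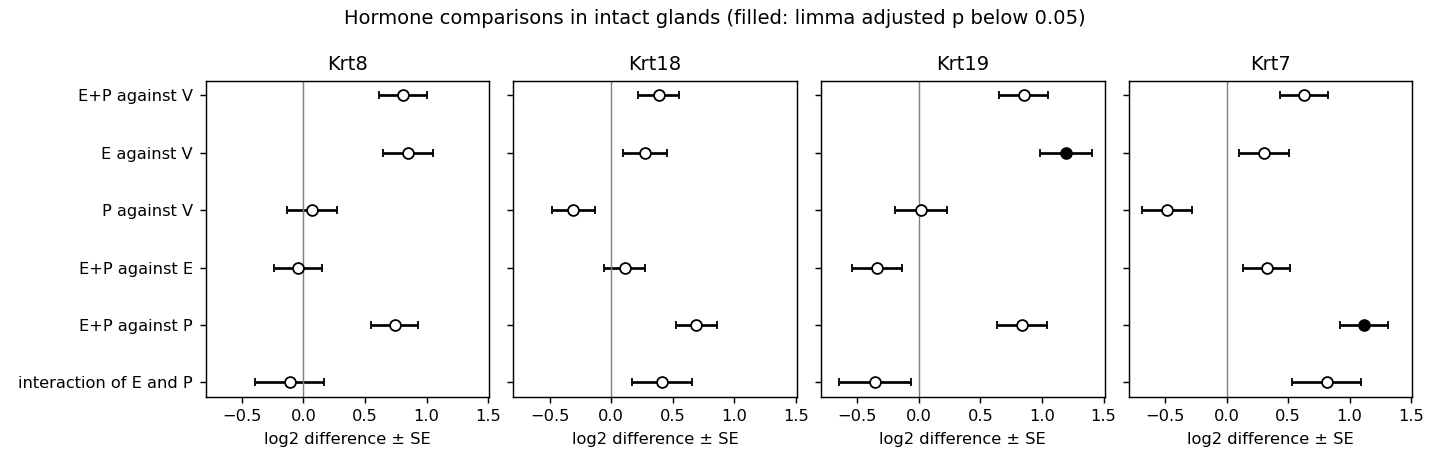
Log2 difference with its standard error for each luminal keratin in 5 comparisons of intact glands and in the interaction of E and P; filled points have a limma adjusted p under 0.05. The filled points are Krt19 in E against V (1.19) and Krt7 in E+P against P (1.12).

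Whether the keratins differed from each other in their response was tested on the log2 ratio of 2 genes within each animal. All 6 pairs were compared in E+P against V, E against V and E+P against E+P CFP by a two-sided exact permutation test, with adjustment over the 18 tests. The pairs against the pads compare values at the floor and are not read. They still count in the adjustment. The exact permutation p of 0.0357 of Krt19, Krt8 and Krt18 over Krt7 against the pads sets the adjusted p of 0.0804 given below. Of the 12 hormone tests 0 passed after adjustment and 5 had an unadjusted p under 0.05. The smallest p that the group sizes allow is 0.0286 for E against V and 0.0159 for E+P against V.

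In E against V the log2 ratio of Krt19 over Krt18 was higher by 0.92, that of Krt19 over Krt7 by 0.89 and that of Krt8 over Krt18 by 0.58. Each had non-overlapping groups and the smallest p the exact permutation test allows, 0.0286, with an adjusted p of 0.0804. The ratio of Krt8 over Krt18, the standard filament pair, had an SD of 0.06 in the E glands, 0.09 in the V glands and 0.20 in the E+P glands. Krt8 over Krt7 was higher by 0.55 and Krt19 over Krt8 by 0.34 (exact permutation p = 0.0571 for both, adjusted p = 0.103). Krt18 over Krt7 differed by -0.03 (exact permutation p = 0.800), and the sign turned when 1 animal was left out.

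In E+P against V the ratio of Krt19 over Krt18 was higher by 0.47 (exact permutation p = 0.0317, adjusted p = 0.0804) and that of Krt8 over Krt18 by 0.42 (exact permutation p = 0.0159, adjusted p = 0.0804). Krt19 over Krt7 stood at 0.22, Krt8 over Krt7 at 0.18 and Krt19 over Krt8 at 0.04, with exact permutation p of 0.238 or more. Krt18 over Krt7 stood at -0.24 (exact permutation p = 0.0952). The comparisons share their V animals and are no independent support for each other.

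**Figure D3:**
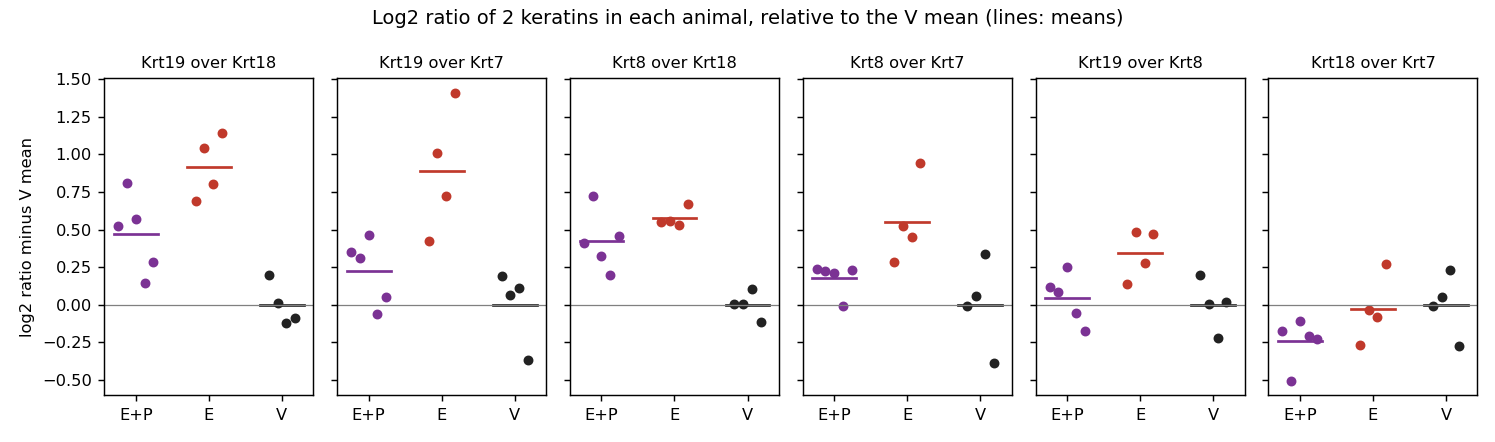
Log2 ratio of 2 keratins in each animal of the E+P, E and V groups, minus the mean ratio of the V group; lines are group means. The ratios of Krt19 or Krt8 over Krt18 lie above the V animals in all 4 E animals, while Krt18 over Krt7 stays around the V mean in E.

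Across animals the 4 genes varied together. Over the 17 intact glands Pearson's r of log2 signal was 0.92 between Krt8 and Krt19 and 0.90 between Krt7 and Krt18. The other 4 pairs lay between 0.74 and 0.83. After the group means were taken out, r lay between 0.63 and 0.81 over the 6 pairs. It was 0.81 between Krt8 and Krt19 and 0.76 for Krt18 with either Krt7 or Krt8. The glands of a group share their treatment and all values of an animal share 1 array, so these are descriptions with no test.

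The 4 genes also followed the epithelial marker score to different degrees. Over the 17 intact glands r with the score was 0.84 for Krt7, 0.80 for Krt18, 0.67 for Krt8 and 0.52 for Krt19. Within groups it was 0.80 for Krt7, 0.83 for Krt18, 0.84 for Krt8 and 0.75 for Krt19. In the pooled values of Krt8 and Krt19, the E glands lay above other glands of a like score.

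**Figure D4:**
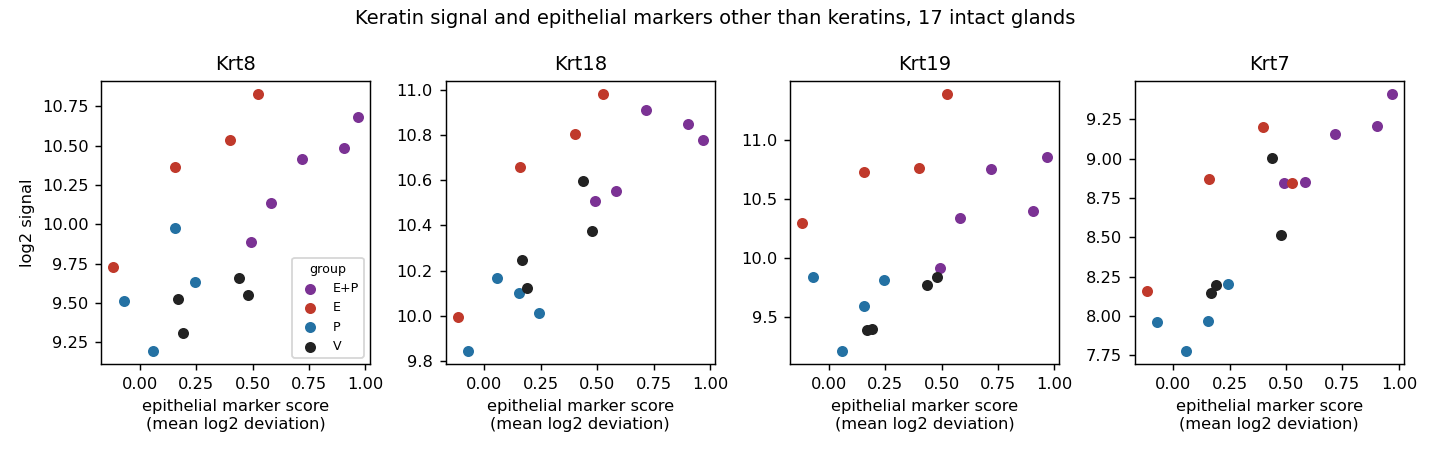
Log2 signal of each luminal keratin against the epithelial marker score (mean log2 deviation of 33 markers other than keratins) in 17 intact glands of the E+P, E, P and V groups. For Krt19 and Krt8 the E glands stand above the V glands at like scores, and for Krt7 and Krt18 the groups lie closer to 1 band (r = 0.84 and 0.80).

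Genes with the most similar profile over the 17 intact glands were taken from the 7221 tested probe sets of the same array type, 5 per keratin. For Krt7 they were Tceal9 (r = 0.92), the membrane glycoprotein gene Cdcp1 (0.89), Col7a1 (0.89), which encodes the anchoring fibril collagen, the corepressor gene Nab2 (0.85) and the tropomyosin gene Tpm1 (0.83). For Krt18 they were Tceal9 (0.85), Cdcp1 (0.85), the tubulin deacetylase gene Hdac6 (0.84), the calponin gene Cnn3 (0.83) and Col7a1 (0.80). Krt7 and Krt18 thus shared 3 of their 5.

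For Krt8 the list held the acyl-CoA thioesterase gene Acot1 (r = 0.87), Tead2 (0.87), which encodes a DNA-binding partner of Yap, Pdlim4 (0.87), the telomere protein gene Ten1 (0.86) and Cldn3 (0.83). For Krt19 it held Tead2 (0.84), Ten1 (0.84), Nab2 (0.83), the RNA helicase gene Ddx39b (0.82) and Acot1 (0.81). Krt8 and Krt19 shared 3 of their 5. These ranks use r over all 17 glands, so differences between group means enter them. With group means taken out, r was 0.53 for Tead2 with Krt19, 0.57 for Acot1 with Krt19, 0.59 for Ddx39b with Krt19 and 0.60 for Nab2 with Krt7, whereas Nab2 with Krt19 stood at 0.83. Over the 20 pairs it lay between 0.53 and 0.85. Of these 13 genes the largest differences in E+P against E+P CFP were those of Cdcp1 (4.88), Cldn3 (3.94), Acot1 (3.62) and Col7a1 (2.34), all called by limma. The other called genes ran from 0.61 for Nab2 to 1.94 for Tead2. Ten1 (1.09, limma adjusted p = 0.141), Pdlim4 (0.46, 0.224) and Ddx39b (0.29, 0.192) were not called. In E+P against V Col7a1 was the 1 called, at 1.09 (limma adjusted p = 0.045), and in E against V 0 were called.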

How the data were processed

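Total RNA from 20 animals was extracted with Ultraspec and labelled with biotin, per the labels' protocols, and hybridised to 3 array types (60 arrays). The authors deposited linear signal intensities. MAS5 produced them, per the submitters' processing notes, in a version not given in the sources used here. Groups follow the titles and treatment protocols. The description field names progesterone alone for the E+P, E+P CFP and V arrays, which conflicts with both of those fields, and the labels do not settle it. Arrays of 1 group and replicate number were assumed to be 1 animal, which the labels do not state. The keratin values do not depend on this, since all their tested probe sets are of type A, but the marker scores and the fits that use them do. Replicates are separate animals, per the titles, and no 2 arrays held identical values.

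From these intensities, control probe sets were removed, each array was scaled to a common 2% trimmed mean (147.7 to 149.2 before scaling), and values under the 25th percentile of an array type (13.6 for A, 28.6 for B and 19.8 for C) were raised to it before log2. Tested probe sets exceeded the 50th percentile (61.6, 85.7 and 61.8) in 3 animals or more, leaving 7221, 7716 and 8125. A gene was named from the platform annotation (29131 probe sets with 1 symbol, 724 with several, 6846 with none) and represented by 1 probe set, chosen by array type (A first, C last), plain suffix and highest mean, in that order. limma 3.58.1 (R 4.3.3) fitted 5 group means with an intensity trend, with Benjamini-Hochberg adjustment over all 23062 tested probe sets and a threshold of 0.05. Ratios of 2 keratins and the marker score were tested with exact permutation tests (scipy 1.17.1). The fit was tested on simulated data. A difference against values at the floor is a lower bound, and the number of arrays limits the precision.

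Named beside the members were the 5 genes most correlated with each over 17 intact glands, and up to 4 genes with the smallest adjusted p from each of the lists of other keratins, keratin network partners and epithelial markers. Members, lists, comparisons and alternatives were chosen with earlier results of these data known. Alternatives covered the scaling, floor, filter, variance model, animals, covariates and probe set.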

Additional observations from a re-analysis of the deposited data

How the results depend on the processing

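Replicate numbers did not pair the animals: deviations of same-numbered animals correlated at 0.02 on average on type A (10 of 36 pairs over 0.1). With the replicate number as a block, Krt19 in E against V stood at 1.19 (limma adjusted p = 0.0458) and Krt7 in E+P against P at 1.09 (0.0527), which left 0 keratins called in E+P against P, and no other call of a keratin changed. Among all 23062 tested probe sets the block left 33 called in E+P against P, against 81 as reported. In E+P and V against E+P CFP all 4 keratins were called under every alternative run with the pads.

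The count of keratins called in E+P against V, 0 as reported, was 1 with a filter at the 75th percentile, 2 with array weights, 2 with the Gapdh ratio in the model and 0 to 2 with 1 animal left out. Among all tested probe sets, that filter called 97 of 11811, array weights 210 of 23062 and the Gapdh ratio 151, against 106 as reported. In E against V the count of 1 became 0 with no filter, 0 with only the groups compared, 0 with the lymphocyte score, 2 with array weights, 2 with the epithelial score and 0 to 2 with 1 animal left out. Calls among all tested probe sets were 11 of 36701 with no filter and 28 of 23062 with only the groups compared. They were 0 with the lymphocyte score, 282 with array weights and 46 with the epithelial score, against 41 as reported. Krt19 in E against V lost its call with no filter (1.19, limma adjusted p = 0.0663), with only the groups compared (1.19, 0.0750), with the lymphocyte score (1.27), with its other probe set (1.08) and without E 4 (1.00), V 2 (1.13) or V 3 (1.12). Over all animals left out in turn it ran from 1.00 to 1.36. In E+P against P the count of 1 became 2 with a floor at the 40th percentile, 0 with the epithelial score and 0 to 3 with 1 animal left out. Among all 23062 tested probe sets, 123 were called there with that floor and 0 with the epithelial score, against 81 as reported. Krt7 there stood at 0.31 with the epithelial score and at 1.04 to 1.19 with 1 animal left out.

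Signs that turned belong to values that were not called. Under median scaling P against V gave -0.032 for Krt8 and -0.084 for Krt19; the other Krt19 probe set gave -0.35 there and 0.077 for the interaction. With the epithelial score in the model E+P against E gave -0.30 for Krt7 and -0.41 for Krt18, E+P against P gave -0.13 for Krt8, E+P against V gave -0.051 for Krt18, and the interaction gave -0.095 for Krt7 and -0.34 for Krt18. E+P against E gave -0.027 for Krt18 with the Gapdh ratio and 0.014 for Krt8 without V 4, E 1 and E+P CFP 1. With 1 animal left out, P against V ran from -0.066 to 0.20 for Krt8 and from -0.060 to 0.15 for Krt19, E+P against E from -0.26 to 0.11 for Krt8 and from -0.096 to 0.23 for Krt18, the interaction from -0.32 to 0.045 for Krt8, Krt19 over Krt8 in E+P against V from -0.031 to 0.11 and Krt18 over Krt7 in E against V from -0.13 to 0.052. The cause of these changes was not tested.

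Of 1606 recomputed values 1523 kept their direction and side of the threshold or, for a count of keratins called, the same count. The 1606 include fits without an animal of a group not compared, in which the difference itself cannot change. Median scaling moved the median of all type A probe sets by -0.13 in E+P against V, by -0.11 in E against V and by -0.23 in E+P against E+P CFP, and the keratins moved with it. Under it 39.2% of all calls in E+P against V were higher, against 53.8% as reported, and in E+P against E+P CFP 40.3% against 66.2%. Counts over all tested probe sets ranged from 3 to 210 in E+P against V (106 as reported), from 0 to 282 in E against V (41), from 0 to 4 in P against V (0), from 0 to 73 in E+P against E (33), from 0 to 131 in E+P against P (81), from 2 to 47 in the interaction (17), from 1076 to 2053 in E+P against E+P CFP (1823) and from 369 to 782 in E+P CFP against V (708).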

Other observations

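Within each intact group the same animal was often at the edge for several keratins. E+P 4 and E 2 were the lowest of their groups for all 4 genes. P 3 was the lowest of the P glands for Krt7, Krt8 and Krt19 but the highest for Krt18. The epithelial marker scores of E+P 4, E 2 and P 3 were 0.491, -0.117 and 0.058. These were the lowest of the E+P group, the lowest of the E group and the second lowest of the P group. No keratin value in the 16 groups of 4 or 5 animals stood far enough from its group to pass Dixon's test. The Gapdh control probe sets give a sign of RNA quality. Their log2 ratio, 3' end over 5' end, ran from 0.572 to 1.46 in the E+P glands, from 0.305 to 0.778 in the E glands, from 0.436 to 1.32 in the P glands, from 0.331 to 2.13 in the E+P CFP pads and from 0.982 to 1.88 in the V glands. The E and V glands did not overlap in it, and its part in the keratin values was not tested beyond the fits with this ratio in the model.

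Of the epidermis list, which holds keratins of skin, 5 of 13 genes were tested and 0 were called in any hormone comparison. The 3 tested mesothelial markers, from another tissue known to express Krt7, Krt8, Krt18 and Krt19, had summed signals of 132 to 290 in the E+P glands, 186 to 395 in the E glands, 204 to 401 in the P glands, 114 to 327 in the E+P CFP pads and 177 to 306 in the V glands, and 0 were called.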
